A study of Mus musculus with 8 samples.

Results

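Virtual memory (VM) CD8 T cells that carry Sca-1 were compared by whether they also carry Ly6C. The comparison takes 3 of the 8 libraries of the series: 2 libraries of Ly6C+ Sca-1+ VM cells, called A (plain column name) and B (suffixed column name) here, and 1 library of Ly6C- Sca-1+ VM cells. All came from wild-type C57BL/6 mouse spleen, with no treatment named. By the submitters' protocol, anti-CD8 beads enriched the cells, which were then gated as CD44hi CD49d- and divided by Ly6C and Sca-1, so both groups share the CD44hi CD49d- Sca-1+ gate and differ in Ly6C alone. The series also holds the Sca-1- VM cells, naive cells, gated as CD44- CD49d-, and true memory cells, which unlike VM cells were CD49d+, which served for the spread and as reference levels. No source used here gives the age, sex or number of mice, or says whether libraries A and B came from separate mice, so the p-values measure the spread between libraries, which may be technical.

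VM cells acquire the surface markers of memory cells without meeting a foreign antigen, under the influence of self-recognition and of cytokines such as IL-15, or IL-4 in some strains. Ly6C and Sca-1 are small proteins of the Ly6 family, attached to the membrane by a lipid anchor, and both can be induced by interferons. On CD8 T cells Ly6C is widely used as a marker of memory cells, and Sca-1 (the product of Ly6a) is best known as a marker of blood stem cells.

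The gate was visible in the RNA. Ly6c2 (Gene ID 100041546, chromosome 15, 75108161 to 75112066, GRCm38), which encodes Ly6C, was at 951 and 901 CPM (a gene's counts relative to the library's scaled total) in Ly6C+ libraries A and B and at 75.5 CPM in the Ly6C- library. Its log2 fold change, Ly6C+ over Ly6C-, was 3.62 ± 0.14 (SE). Ly6c1 (Gene ID 17067, chromosome 15, 75044018 to 75048920), a near-identical neighbour, was at 76.1 and 74.7 CPM against 6.57 CPM. The share of reads that belongs to each copy is uncertain. Ly6a, the gene of the shared gate, was present in all 3 libraries, at 29.4 and 39.8 CPM in Ly6C+ and 62.3 CPM in Ly6C- cells, and its log2 fold change of -0.85 ± 0.23 did not pass (adjusted p = 0.072). The other gate genes were not called: Cd44 was at 189 and 159 CPM against 166, Itga4 (for CD49d) at 276 and 331 against 330, and Cd8a at 1141 and 1262 against 1317 CPM.

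Of 15112 genes tested, 1386 (9.17%) passed edgeR's quasi-likelihood test at 0.05 after Benjamini-Hochberg adjustment and are referred to as called. In all of these the Ly6C- library lay outside both Ly6C+ libraries, while over all genes it lay above both in 42.2% and below both in 40.1%. The Ly6C- cells held most of the higher levels: 477 genes (3.16%) were higher in Ly6C+ and 909 (6.02%) were lower in Ly6C+. Large differences were more one-sided still, with 66 called genes higher in Ly6C+ by 4-fold or more and 266 lower by as much. Every fold change below is Ly6C+ over Ly6C-, so a negative value marks a gene that is higher in the Ly6C- library. The Ly6C- group is 1 library, assumed to vary as much as the groups with 2, and what sets that library apart cannot be told apart from Ly6C. Without Ly6C+ library A the count was 483 and without B it was 781, while without Ly6C+ Sca-1- library A or B it was 2912 and 2954. The 3 libraries alone gave 2593.

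**Figure D1:**
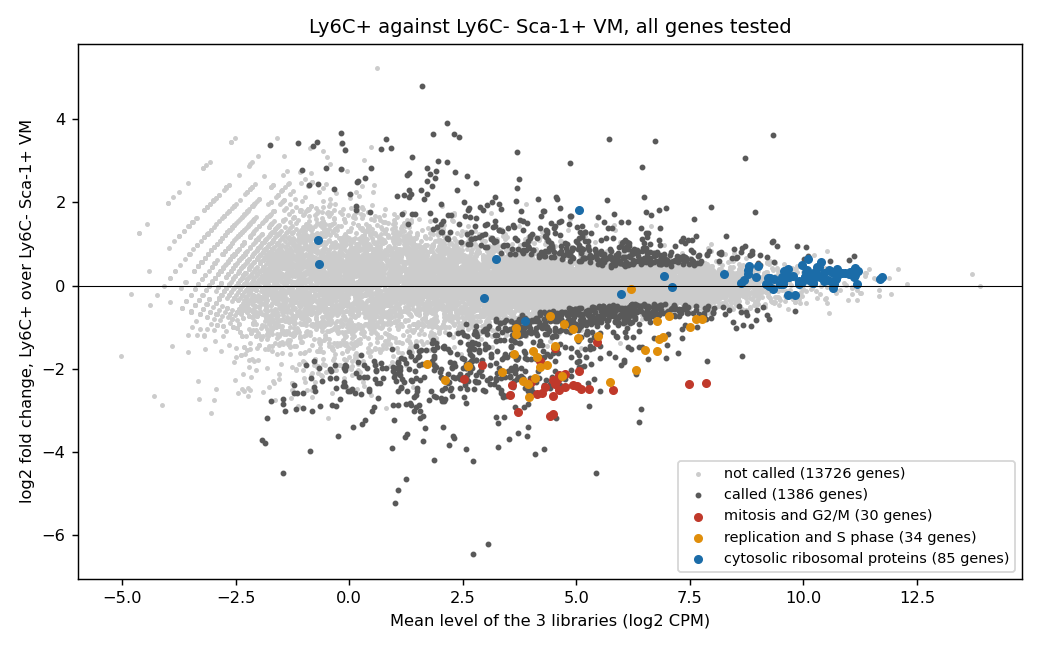
Each point is 1 of the 15112 genes tested, with its mean level in the 3 libraries (log2 CPM) across and its log2 fold change, Ly6C+ over Ly6C- Sca-1+ VM, upward; dark points are the 1386 called. All 30 mitosis genes and 32 of 34 replication genes sit among the called genes below 0, while most ribosomal protein genes lie just above 0 and are not called.

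Proliferation genes formed the broadest difference. The cell cycle runs from DNA replication in S phase, through G2, to mitosis, and the genes of each stage are transcribed together in dividing cells. All 30 mitosis and G2/M genes were called lower in Ly6C+ cells, with a median log2 fold change of -2.38 and a range of -3.13 to -1.35. Of 34 replication and S phase genes 32 were called lower and 0 higher, with a median of -1.55. Over all genes tested the median was 0.00 and 6.02% were called lower. In bulk RNA, more dividing cells and more of these transcripts per cell cannot be told apart.

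Among mitotic genes, Ube2c (chromosome 2, 164769929 to 164772902), a ubiquitin-conjugating enzyme of the anaphase-promoting complex, was at 5.73 and 6.21 CPM in Ly6C+ libraries A and B and at 52.1 CPM in the Ly6C- library. The fold change was -3.13 ± 0.19 (adjusted p = 0.0026). Ccnb2, a mitotic cyclin (chromosome 9, 70407689 to 70421554), was at 6.40 and 6.46 against 54.3 CPM, with -3.08 ± 0.20. Both Ly6C+ libraries lay far below the Ly6C- library and close to each other. Cdc20, which activates the anaphase-promoting complex, differed by -2.27 ± 0.15, the checkpoint kinase Bub1b by -2.38 ± 0.17, and the mitotic kinase Aurkb by -2.59 ± 0.21. Naive cells had 0.462 CPM of Ube2c and true memory cells 40.2 CPM, so the Ly6C+ levels lay between these and the Ly6C- level lay above both.

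Replication genes differed by less. Mcm5, a subunit of the replicative helicase (chromosome 8, 75109468 to 75128439), was at 63.7 and 69.3 CPM in Ly6C+ and 198 CPM in Ly6C- cells (-1.57 ± 0.10). The further helicase subunits Mcm7 and Mcm3 had -1.28 ± 0.10 and -1.23 ± 0.10. Uhrf1, which maintains DNA methylation behind the fork (chromosome 17, 56303337 to 56323486), was at 38.6 and 40.2 against 161 CPM (-2.03 ± 0.11). The replication checkpoint gene Clspn had -2.17 ± 0.17. Outside the lists, the genes with the smallest p included Pclaf, a PCNA-binding factor, at 16.4 and 18.8 against 102 CPM (-2.54 ± 0.12). They also included the transcription factor E2f2, at 35.1 and 37.8 against 125 CPM (-1.78 ± 0.11). Without Ly6C+ library A or B, 29 and 30 mitotic and 26 and 27 replication genes were called, all lower.

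The promoters of 4 of these genes are shown because the lists moved as blocks and their stages use different promoter letters. Each is 250 bases before to 50 bases after an annotated start, from RefSeq on GRCm38.p6, on the strand of the gene, 5′ to 3′. Capitals in the first pair mark the cell cycle homology region, searched as TTTGAA or TTCGAA on both strands. In the second pair they mark an E2F site, searched as TTTCCCGC, TTTCGCGC, TTTGCCGC or TTTGGCGC on both strands, where overlapping matches run together. Uhrf1 has a further window, chr17:56303087-56303386, at the gene start given above, with 0 such matches, and the window printed is the one that holds a match.
Ube2c, chr2:164769679-164769978, plus strand: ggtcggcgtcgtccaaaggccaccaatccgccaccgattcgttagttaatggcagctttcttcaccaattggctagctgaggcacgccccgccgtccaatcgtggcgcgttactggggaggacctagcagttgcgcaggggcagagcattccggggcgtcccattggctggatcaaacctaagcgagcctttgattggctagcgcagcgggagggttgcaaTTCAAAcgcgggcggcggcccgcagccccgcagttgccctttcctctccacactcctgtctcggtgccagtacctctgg
Ccnb2, chr9:70421505-70421804, minus strand: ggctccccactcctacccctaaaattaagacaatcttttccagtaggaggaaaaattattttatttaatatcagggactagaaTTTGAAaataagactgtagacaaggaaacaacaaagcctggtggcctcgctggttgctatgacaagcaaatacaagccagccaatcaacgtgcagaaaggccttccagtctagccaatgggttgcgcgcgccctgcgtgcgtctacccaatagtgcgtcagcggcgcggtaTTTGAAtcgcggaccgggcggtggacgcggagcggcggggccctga
Mcm5, chr8:75109259-75109558, plus strand: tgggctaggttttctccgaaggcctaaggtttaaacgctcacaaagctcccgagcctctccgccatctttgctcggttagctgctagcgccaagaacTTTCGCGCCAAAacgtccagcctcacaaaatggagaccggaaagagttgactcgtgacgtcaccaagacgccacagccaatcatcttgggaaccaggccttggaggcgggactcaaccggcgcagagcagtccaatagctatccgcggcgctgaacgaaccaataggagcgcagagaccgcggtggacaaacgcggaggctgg
Uhrf1, chr17:56304063-56304362, plus strand: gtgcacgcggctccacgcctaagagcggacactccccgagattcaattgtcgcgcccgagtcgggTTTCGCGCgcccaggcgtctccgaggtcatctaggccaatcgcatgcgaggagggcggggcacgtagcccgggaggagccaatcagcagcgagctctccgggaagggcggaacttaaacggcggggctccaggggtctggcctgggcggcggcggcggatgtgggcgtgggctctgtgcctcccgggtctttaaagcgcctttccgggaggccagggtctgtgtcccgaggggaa
A cell cycle homology region was in 20 of 26 promoter windows of the mitotic genes (76.9%), against 7 of 32 windows of the replication genes (21.9%) and 14.9% of the windows of all genes tested. An E2F site was in 2 mitotic windows (7.7%), 12 replication windows (37.5%) and 4.0% of all tested. The windows cover 25 of the 30 mitotic and 27 of the 34 replication genes. A match is a description of letters, not a site shown to be used.

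**Figure D2:**
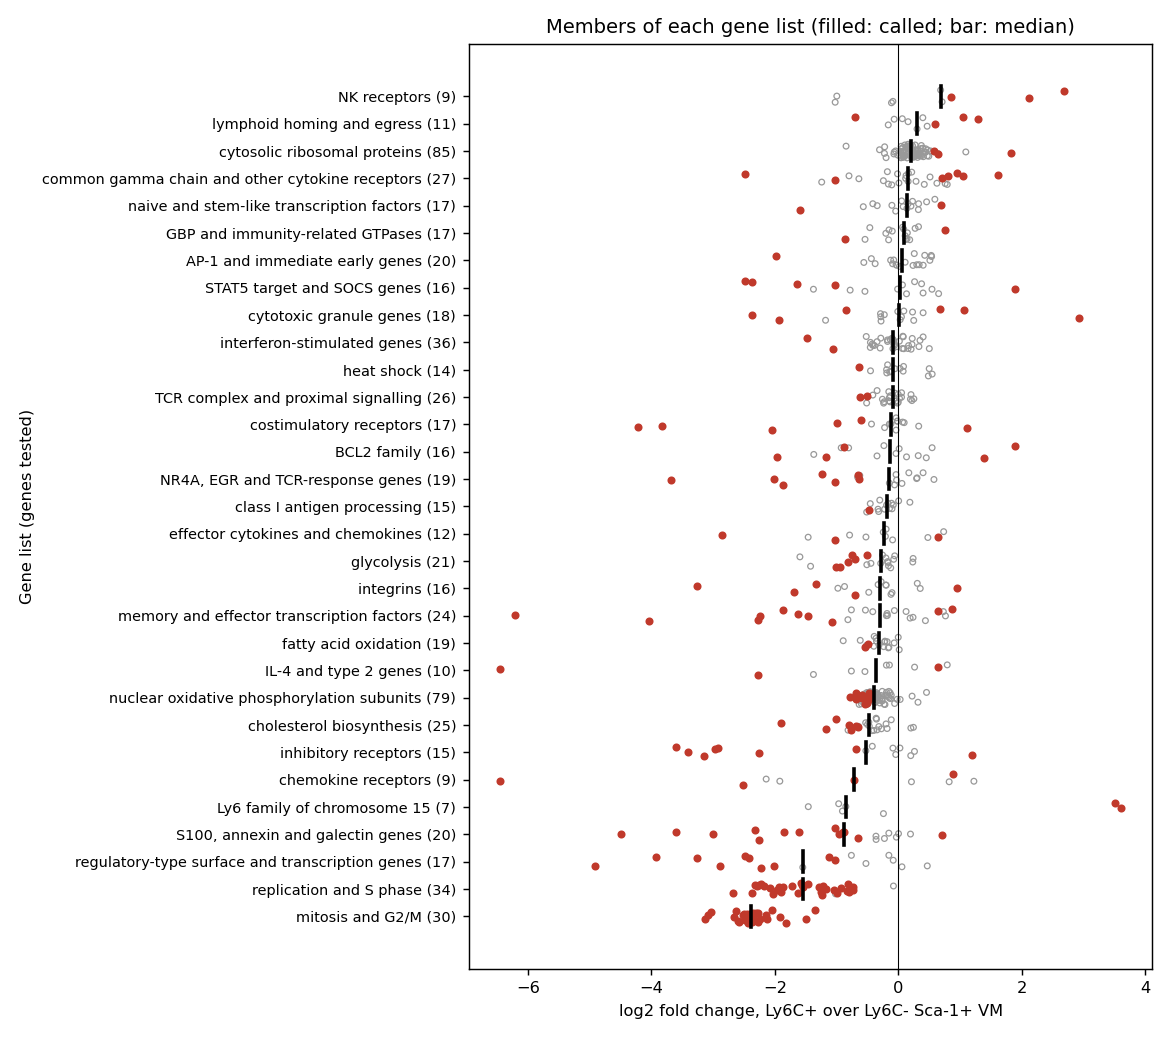
Each row is a gene list with the number of its genes tested, each point is 1 gene at its log2 fold change (Ly6C+ over Ly6C- Sca-1+ VM), filled where called, and the bar is the list's median. The mitosis and replication lists lie wholly or almost wholly below 0 with medians of -2.38 and -1.55, while NK receptor genes have the highest median.

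Of 15 inhibitory receptors tested, which restrain T cell activation, 7 were called lower and 1 higher (53.3% called, against 9.17% of all genes), with a median of -0.53. Pdcd1, for PD-1 (chromosome 1, 94038305 to 94052553), was at 0.850 and 1.22 CPM in Ly6C+ libraries A and B and at 12.6 CPM in the Ly6C- library (-3.60 ± 0.40, adjusted p = 0.0075). Lag3, a receptor for MHC class II, was at 3.42 and 3.87 against 38.6 CPM (-3.40 ± 0.46). Ctla4, which competes with CD28 for its ligands, was at 31.8 and 21.1 against 207 CPM (-2.97 ± 0.42). In the Ly6C- Sca-1- library these 3 genes were at 12.7, 27.9 and 199 CPM, also above both Ly6C+ Sca-1+ libraries. Cd200 (-3.15 ± 0.25) and Havcr2, for TIM-3 (-2.91 ± 0.45), were lower too. Havcr2 was at 6.57 CPM in Ly6C- cells and 61.9 CPM in true memory cells, whose library also had 2062 CPM of the dendritic cell marker Cd74. Lair1, a collagen receptor, was instead higher in Ly6C+ cells, at 25.8 and 23.2 against 10.7 CPM (1.19 ± 0.19). Its call ended without library A, and with that library left out 5 genes of the list were called lower and 0 higher.

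Genes known from regulatory T cells or from chronically stimulated CD8 cells moved with them. Of 17 tested, 10 were called lower and 0 higher (58.8% called, against 9.17% of all genes), with a median of -1.55. Nrp1, the co-receptor neuropilin-1 (chromosome 8, 128358591 to 128505476), was at 2.93 and 3.88 CPM against 52.1 CPM (-3.93 ± 0.22). Lrrc32, which anchors latent TGF-beta on the cell surface, was at 0.102 and 0.285 against 5.90 CPM (-4.91 ± 0.57). Both were low in Ly6C+ cells and well counted in the Ly6C- library. Itgae, for CD103, an integrin chain that binds E-cadherin, was at 16.7 and 26.4 against 207 CPM (-3.27 ± 0.31). It was high in naive cells too, at 318 CPM. Capg, an actin-capping protein, had -2.88 ± 0.21, and Izumo1r, for folate receptor 4, had -2.22 ± 0.21. Foxp3, which defines regulatory T cells, had no row in the table, which holds only genes with at least 1 count in every library. Its level in the libraries compared is therefore unknown.

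Transcription factors of memory and effector cells divided, 2 higher and 8 lower of 24 (41.7% called, against 9.17% of all genes). Zbtb32, a repressor induced on activation, was at 2.02 and 3.53 against 45.9 CPM (-4.04 ± 0.34). Maf, a factor of type 2 and IL-10-producing T cells, had -2.27 ± 0.32, Rora had -1.62 ± 0.23, and Id2, an inhibitor of E proteins, was at 57.6 and 53.1 against 153 CPM (-1.47 ± 0.16). Eomes, a T-box factor tied to IL-15 responses and VM cells, was higher in Ly6C+ cells, at 198 and 219 against 133 CPM (0.65 ± 0.13, adjusted p = 0.036). Hopx, a homeodomain protein, was also higher, at 102 and 87.8 against 52.2 CPM (0.86 ± 0.16). Without library A neither of these passed, and without B Hopx did.

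**Figure D3:**
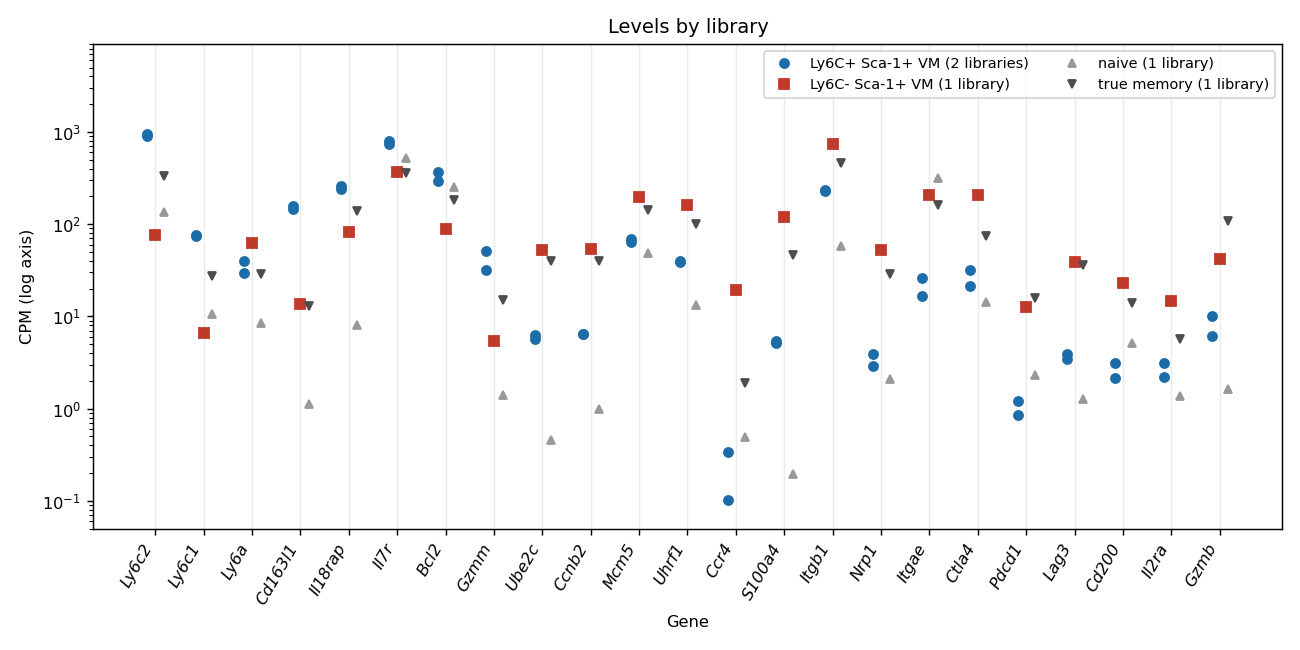
Points give the CPM (log axis) of 23 genes: circles for the 2 Ly6C+ Sca-1+ libraries, squares for the Ly6C- Sca-1+ library, triangles for naive and true memory cells (1 library each). The Ly6C+ pair lies together for most genes, above the square for Ly6c2, Ly6c1, Cd163l1, Il18rap, Il7r, Bcl2 and Gzmm and below it for the rest.

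Few factors of naive and stem-like cells were called: 1 of 17 was higher and 1 lower (11.8%, near the 9.17% of all genes). Satb1, a chromatin organiser, was at 712 and 632 against 415 CPM (0.70 ± 0.13), and Sox4 was at 3.32 and 5.37 against 13.1 CPM (-1.60 ± 0.30). Both calls ended without library A, and that of Satb1 also without B. Tcf7, for TCF-1, named here after its values were seen, was at 1635 and 1482 CPM in Ly6C+ and 1674 CPM in Ly6C- cells (-0.10 ± 0.13).

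Of homing genes, 3 of 11 were higher and 1 lower in Ly6C+ cells (36.4% called, against 9.17% of all genes). Il7r, the IL-7 receptor alpha chain, was at 745 and 798 CPM against 372 CPM (1.05 ± 0.18). Cxcr5, which guides cells to follicles, was at 43.5 and 47.2 against 18.5 CPM (1.29 ± 0.14). Itgb7, the integrin chain of gut homing, was lower, at 497 and 475 against 787 CPM (-0.70 ± 0.14). Of these, Cxcr5 passed both without A and without B, Il7r passed without A, and Itgb7 was lost without either.

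Chemokine receptors divided, with 1 of 9 higher and 3 lower (44.4% called, against 9.17% of all genes). Ccr4 (chromosome 9, 114490316 to 114505476), a receptor of type 2, regulatory and skin-homing T cells, was at 0.102 and 0.335 CPM in Ly6C+ libraries A and B and at 19.4 CPM in the Ly6C- library. The fold change of -6.46 ± 0.52 was the lowest of all called genes with at least 5 CPM, and the Ly6C- level was the highest of the 8 libraries, with 4.37 CPM in Ly6C- Sca-1- cells. Cxcr6, for the CXCL16 receptor, was at 37.7 and 40.3 against 64.1 CPM (-0.72 ± 0.11), a call lost without A. Cx3cr1, of late effector cells, was at 0.748 and 2.48 against 9.22 CPM (-2.51 ± 0.55), a call that was not made by DESeq2, without a filter, or in a fit of the 6 VM libraries.

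The S100, annexin and galectin genes, whose products bind calcium, membranes or sugars and are high in effector and tissue memory T cells, were lower in Ly6C+ cells. Of 20 tested, 12 were called lower and 1 higher (65.0% called, against 9.17% of all genes), with a median of -0.89. S100a4 (chromosome 3, 90603770 to 90606045) was at 5.46 and 5.14 CPM in Ly6C+ and 120 CPM in Ly6C- cells (-4.50 ± 0.22, adjusted p = 0.0026). Its level in Ly6C- Sca-1+ cells exceeded the 46.8 CPM of true memory cells. Lgals3, for galectin-3, was at 2.91 and 3.50 against 39.1 CPM (-3.61 ± 0.25), and Lgals1 was at 95.1 and 85.1 against 275 CPM (-1.61 ± 0.13). Anxa2, an annexin, and S100a10, its partner, were lower as well (-1.85 ± 0.17 and -1.03 ± 0.11). Ahnak, a very large scaffold protein, was higher in Ly6C+ cells, at 1307 and 1227 against 771 CPM (0.72 ± 0.12). Without library A or B, 9 genes of the list were called lower, and Ahnak was not called.

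Among integrins, 4 of 16 were called lower and 1 higher (31.2% called, against 9.17% of all genes). Itgb1, the beta 1 chain shared by many matrix-binding integrins (chromosome 8, 128685654 to 128733579), was at 235 and 226 CPM against 744 CPM (-1.69 ± 0.11), the highest level of the 8 libraries. Its partner Itga2, which binds collagen, was at 6.45 and 6.09 against 15.8 CPM (-1.34 ± 0.23). Itgax, for CD11c, which VM and effector cells can carry, was higher in Ly6C+ cells at 28.4 and 32.4 against 15.8 CPM (0.95 ± 0.17). The Itga2 call ended without A and without B, and the Itgax call without B, and 3 and 2 integrin genes in all were called without A and without B.

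Cytotoxic granule genes split evenly, 3 higher and 3 lower of 18 (33.3% called, against 9.17% of all genes), with a median of 0.01. Gzmm, for granzyme M (chromosome 10, 79689020 to 79695261), was at 50.6 and 31.8 CPM in Ly6C+ libraries A and B and at 5.39 CPM in the Ly6C- library (2.93 ± 0.38). Prf1, for perforin, was at 84.4 and 84.5 against 40.5 CPM (1.06 ± 0.11). Ctsw, a cathepsin of cytotoxic cells, was at 418 and 435 against 266 CPM (0.68 ± 0.11), a call lost without A or B. Gzmb, for granzyme B, ran opposite, at 6.16 and 10.1 against 42.3 CPM (-2.38 ± 0.27). Serpinb6b, a granzyme inhibitor, was at 33.3 and 30.3 against 57.5 CPM (-0.85 ± 0.12). The Ly6C+ cells thus had more granzyme M and perforin RNA, and the Ly6C- cells more granzyme B RNA.

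NK receptor genes were higher where they passed, 3 of 9 (33.3% called, against 9.17% of all genes). Klra6 and Klra3, of the Ly49 family, were at 5.14 and 4.49 against 0.747 CPM (2.68 ± 0.44) and at 15.2 and 9.71 against 2.87 CPM (2.12 ± 0.37). Klrc1, for NKG2A, was at 21 and 18 against 10.8 CPM (0.85 ± 0.18). Ly49 genes are close copies of each other, so their counts are uncertain. Klra6 and Klrc1 did not pass with limma-voom, which called 1 gene higher and 1 lower in this list. Of 12 effector cytokine and chemokine genes 3 were called, against 9.17% of all genes. Tnfsf10, for TRAIL, was higher (62.3 and 62.6 against 40.2 CPM, 0.64 ± 0.12). Lta, for lymphotoxin alpha, was lower (10.1 and 10.8 against 21.3 CPM, -1.03 ± 0.18), as was Csf1, for a macrophage growth factor, at 0.867 and 0.485 against 4.94 CPM (-2.86 ± 0.48). The calls of Tnfsf10 and Lta ended without A or B. Ifng, named after its values were seen, was at 57.1 and 27.4 against 73.0 CPM, with Ly6C+ libraries too far apart for a call (-0.79).

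Receptors of the common gamma chain and other cytokines were higher in 5 of 27 and lower in 2 (25.9% called, against 9.17% of all genes). Of the 16 STAT5 targets below, 31.2% were called. Il18rap, the accessory chain of the IL-18 receptor (chromosome 1, 40515362 to 40551707), was at 259 and 241 CPM in Ly6C+ and 81.7 CPM in Ly6C- cells (1.61 ± 0.12). Il2rb, the beta chain that binds IL-2 and IL-15, was at 1222 and 978 against 568 CPM (0.95 ± 0.17). Ifngr1, for the interferon gamma receptor, was at 350 and 333 against 196 CPM (0.80 ± 0.12). Il2ra, the high-affinity IL-2 receptor alpha chain, was lower, at 2.18 and 3.15 against 14.9 CPM (-2.48 ± 0.34). Tgfbr3, a TGF-beta co-receptor, was at 15.8 and 18.4 against 34.9 CPM (-1.03 ± 0.15). Without library A, Il2rb, Ifngr1 and Tgfbr3 were not called, leaving 2 higher and 1 lower. Among STAT5 targets, 1 of 16 was higher and 4 lower: Bcl2 was the higher gene, and Cish, an inhibitor of IL-2 signalling, was among the lower at 4.41 and 5.72 against 15.8 CPM (-1.64 ± 0.25), a call lost without A, when 1 higher and 2 lower genes were called.

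In the BCL2 family 2 of 16 genes were higher and 3 lower (31.2% called, against 9.17% of all genes). Bcl2, the survival gene, was at 364 and 297 CPM in Ly6C+ and 88.7 CPM in Ly6C- cells (1.90 ± 0.17), the lowest level of the 8 libraries. Bbc3, for the death-promoting PUMA, was higher as well, at 76.0 and 54.4 against 24.9 CPM (1.39 ± 0.30). Bak1, a pore-forming death effector, was lower, at 44.2 and 49.9 against 86.1 CPM (-0.87 ± 0.11). Bcl2a1d and Bcl2a1b, survival genes that are close copies of each other and so uncertain, had -1.97 ± 0.24 and -1.16 ± 0.17. Without library A, Bbc3 and Bcl2a1b were not called. The higher genes thus include one that protects and one that kills, and so do the lower ones.

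T cell receptor components were not called more often than other genes. Genes that respond to receptor signals were, with 36.8% of 19 called against 9.17% of all genes. None of the 10 T cell markers was called, and their summed level was 6140 and 6403 CPM against 6808 CPM. Of 26 genes of the receptor complex and its first signalling steps, 2 were lower (7.69%, near the share of all genes). Those were the adaptors Lat, at 360 and 365 against 560 CPM (-0.63 ± 0.12), and Lcp2 (SLP-76), at 272 and 253 against 373 CPM (-0.51 ± 0.11), and neither passed without A or B. Of 19 genes that respond to receptor signals, 7 were lower and 0 higher, with 4 lower without library A and 5 without B. Spry1, an inhibitor of Ras signalling, was at 2.25 and 2.38 CPM against 29.8 CPM (-3.69 ± 0.21). Nab2, a partner of EGR factors, was at 28.7 and 28.9 against 68.2 CPM (-1.24 ± 0.10), and Irf4 was at 22.5 and 20.3 against 78.1 CPM (-1.87 ± 0.33). Ikzf2, for Helios, was at 10.6 and 18.9 against 59.7 CPM (-2.02 ± 0.30). Of 20 AP-1 and immediate early genes, 1 was called (5.0%): the phosphatase Dusp4, at 5.31 and 4.59 against 19.6 CPM (-1.99 ± 0.27). The 2 Ly6C+ libraries themselves differed there, with a summed level of 10949 and 5034 CPM on each side of the 7023 CPM of the Ly6C- library.

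Of 17 costimulatory genes, 5 were lower and 1 higher (35.3% called, against 9.17% of all genes). Tnfsf8, for CD30 ligand, was the higher gene, at 106 and 106 against 49.2 CPM (1.11 ± 0.11). Cd40lg, for CD40 ligand, was at 0.663 and 1.26 against 17.9 CPM (-4.22 ± 0.40), and Tnfsf11, for RANK ligand, at 0.748 and 0.937 against 12 CPM (-3.83 ± 0.31). Slamf1 had -2.05 ± 0.22. Of 10 genes tied to IL-4 and type 2 responses 3 were called, against 9.17% of all genes. Eomes was higher and Ccr4 and Maf were lower.

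Some metabolic genes were lower in Ly6C+ cells. Of 25 cholesterol synthesis and uptake genes 7 were called lower (28.0%, median -0.47), of 21 glycolysis genes 6 (28.6%, median -0.29), and of 79 nuclear oxidative phosphorylation genes 16 (20.3%, median -0.39). None of these was called higher, and over all genes tested 6.02% were called lower. Sqle, for squalene epoxidase, was at 4.39 and 4.54 CPM against 16.7 CPM (-1.90 ± 0.20). Gapdh was at 329 and 292 against 601 CPM (-0.95 ± 0.15), Pkm, for pyruvate kinase, at 411 and 387 against 702 CPM (-0.82 ± 0.14) and Ldha, for lactate dehydrogenase, at 343 and 373 against 583 CPM (-0.70 ± 0.12). The respiratory chain genes differed by less, such as Ndufs8 of complex I at 26.6 and 28.5 against 44.3 CPM (-0.68 ± 0.12). The calls were mostly lost with 1 library less: without A or B, 2 and 3 cholesterol, 1 and 0 glycolysis and 0 and 1 oxidative phosphorylation genes were called. Cytosolic ribosomal protein genes were positive in 76 of 85 (median 0.21), with 3 called higher (3.53%, near the 3.16% of all genes). Among these 3 was Rps27, at 1210 and 1290 against 801 CPM (0.64 ± 0.12). DESeq2 called 14 of the 85 higher, and 1 was called without A or B.

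Few interferon-driven genes were called. Of 36 interferon-stimulated genes 2 were lower and 0 higher (5.56%, median -0.08): Ifi27l2a, at 50.4 and 53.9 against 145 CPM (-1.48 ± 0.10), and Isg20, at 9.24 and 8.79 against 18.9 CPM (-1.07 ± 0.19). The second call ended without A or B. Fatty acid oxidation and class I antigen processing genes had mostly small negative folds, in 18 of 19 (median -0.31) and 13 of 15 (median -0.19). Guanylate-binding proteins and related GTPases had them in 7 of 17, and heat shock genes in 8 of 14. By calls, the GTPases had 1 gene higher and 1 lower of 17, class I 1 lower of 15, fatty acid oxidation 2 lower of 19, and heat shock 1 lower of 14. These shares, 6.67% to 11.8%, lie near the 9.17% of all genes, and without A or B no gene of the latter lists (GTPases, class I, fatty acid oxidation and heat shock) was called.

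Among the largest positive folds were genes outside the lists. Cd163l1, of the scavenger receptor cysteine-rich family (chromosome 7, 140197218 to 140231145), was at 159 and 146 CPM against 13.6 CPM (3.48 ± 0.19). Yes1, a Src-family kinase, was at 7.76 and 5.21 against 0.433 CPM (3.90 ± 0.45), and Stc2, for the glycoprotein stanniocalcin 2, at 5.70 and 4.69 against 0.413 CPM (3.65 ± 0.39). Kcnj8, a potassium channel gene, had 3.64 ± 0.46 and Fcgr2b, for the inhibitory Fc receptor, was at 7.14 and 5.46 against 0.806 CPM (2.96 ± 0.35). Each of these was low in the Ly6C- Sca-1- library too, at 0.0904 to 9.96 CPM. Samd3 was at 126 and 116 against 27.5 CPM (2.14 ± 0.12), and Plek, for the signalling protein pleckstrin, at 178 and 154 against 45.3 CPM (1.87 ± 0.14). Of lower genes outside the lists, Ptms, for parathymosin, was at 5.68 and 7.10 against 58.0 CPM (-3.18 ± 0.17), Trib1, a pseudokinase, at 3.20 and 2.61 against 33.8 CPM (-3.54 ± 0.22), and Lmnb1, for lamin B1, at 52.2 and 55.3 against 181 CPM (-1.75 ± 0.10).

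More long non-coding RNA genes were called higher than lower in Ly6C+ cells, a class chosen after its values were seen. Of 1358 long non-coding RNA genes 42 were higher (3.09%) and 13 lower (0.957%), with a median of 0.35. Of 11723 protein-coding genes 386 were higher (3.29%) and 866 lower (7.39%), with a median of -0.06. The higher share of the non-coding genes was thus near the 3.16% of all genes. Their lower share was below the 6.02% of all genes. The shift was present against each Ly6C+ library, with a median log2 difference of 0.25 for A and 0.36 for B, and the Sca-1- pair had 0.27. With at least 5 CPM on average, 22 of 212 long non-coding RNA genes were higher (10.4%) and 1 lower (0.472%), against 3.72% and 7.39% of protein-coding genes. Ifngas1, a non-coding gene beside Ifng, was at 41.3 and 46.7 CPM in Ly6C+ and 16.2 CPM in Ly6C- cells (1.44). Malat1, one of the most abundant nuclear RNAs, was at 1259 and 1117 against 1159 CPM (0.04). Whether RNA quality or library preparation had a part was not tested.

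Markers of other cells were checked because sorted fractions can hold a few of them. For the counts that follow, 3.16% of all genes tested were called higher in Ly6C+ and 6.02% lower. Cd4 was at 0.527 and 0.954 CPM in Ly6C+ and 8 CPM in Ly6C- cells (-3.43 ± 0.39), against 1317 CPM of Cd8a in the latter. Zbtb7b, the regulator of the CD4 lineage, was at 7.48 and 6.93 against 29.8 CPM (-2.05 ± 0.35), a call lost without A. Of the 4 CD4 T cell markers tested 3 were lower and 1, Cxcr5, higher in Ly6C+, with a summed level of 52.1 and 56.3 against 74.2 CPM. Cxcr5 gave most of the Ly6C+ sums, at 43.5 and 47.2 against 18.5 CPM, so the sum understates the difference of the others. Cd40lg, the third of those, was at 0.663 and 1.26 against 17.9 CPM. Their part in the levels of Ccr4, Cd40lg, Ctla4, Il2ra, Izumo1r and the other regulatory-type genes was not tested. Some plasma and B cell markers were also higher in Ly6C- cells: 2 of 3 plasma cell genes and 2 of 7 B cell genes were called lower in Ly6C+, with sums of 5.83 and 4.07 against 26.0 CPM and 36.3 and 32.8 against 50.2 CPM. Jchain, the immunoglobulin joining chain, was at 5.48 and 3.75 against 19.6 CPM (-2.09 ± 0.40), a call lost without B. Without A or B, 0 of the B cell genes were called, and Cd22, among the most abundant of them, was at 19.2 and 16.2 against 16.2 CPM (0.13 ± 0.33).

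Monocyte and macrophage genes ran the other way, with a positive fold in 12 of 13, both Ly6C+ libraries above the Ly6C- library in 11, and 0 called higher, with a sum of 199 and 287 against 176 CPM. Csf1r, the receptor that defines them, was at 36.7 and 51.8 against 25.6 CPM (0.79 ± 0.72). Lyz2, for lysozyme, was the exception, at 3.67 and 4.29 against 22.5 CPM (-2.50 ± 0.35). Myeloid cells also make Lgals3, S100a4 and Fcgr2b, and the part of such cells in those levels was not tested. Dendritic cell genes were lower in 9 of 11, with 1 called lower and 1, Itgax, higher (18.2% called, against 9.17% of all genes). Their sum was 107 and 122 against 244 CPM, to which Cd74 gave 38.2 and 43.6 against 107 CPM. Without A 0 dendritic cell genes were called lower, and without B 3. Gamma delta or innate-like T cell markers summed to 10.6 and 12.8 against 40.7 CPM, 2 of 6 being called lower (33.3%, against 6.02% of all genes). Trdc, the gamma delta receptor constant gene, was at 7.67 and 8.65 against 6.41 CPM. Erythroid genes were lower in 5 of 5 with 0 called (19.8 and 15.2 against 35.4 CPM), NK cell genes had 1 higher and 1 lower of 6, and stromal genes 1 lower of 4, Pecam1, calls that were lost without A or B. The single platelet gene in the table, Itga2b, was not called (3.61 and 2.69 against 3.66 CPM), and no neutrophil marker was tested.

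**Figure D4:**
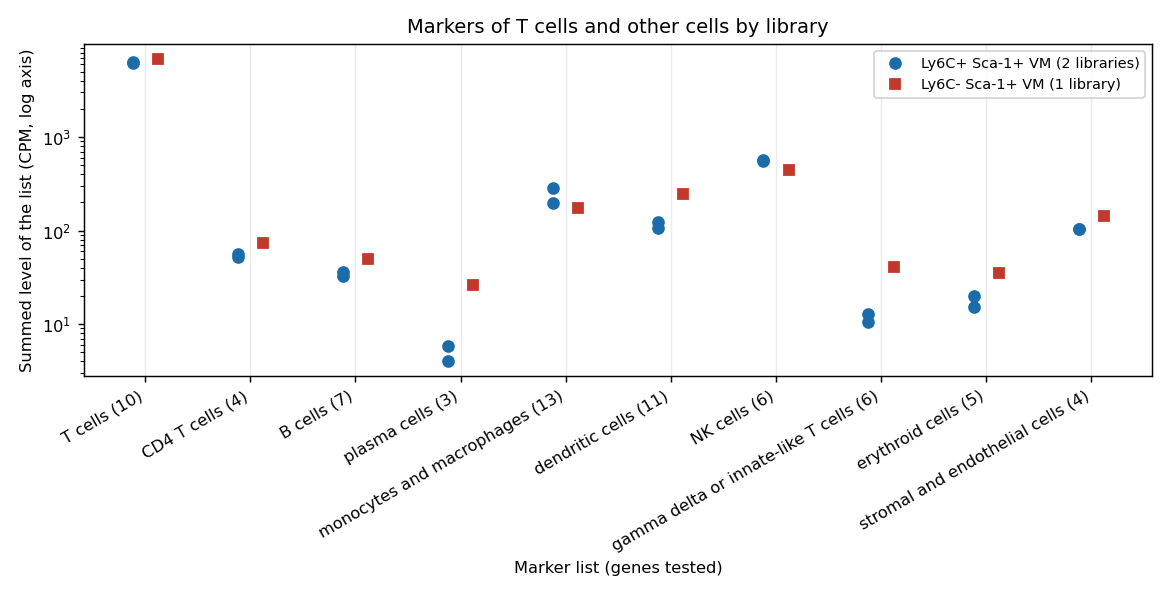
Summed CPM (log axis) of the tested genes of each marker list, circles for the 2 Ly6C+ Sca-1+ libraries and squares for the Ly6C- Sca-1+ library. T cell markers sum to 6140 to 6808 CPM in all 3 libraries, plasma cell markers to 4.07 and 5.83 against 26.0 CPM, and monocyte and macrophage markers to 199 and 287 against 176 CPM.

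A separate pair of groups, Ly6C+ (2 libraries) and Ly6C- (1 library) Sca-1- VM cells, shares no library with this comparison. Of the 1386 genes called in Sca-1+ cells, 1361 (98.2%) had the same sign there, 465 of the 477 higher and 896 of the 909 lower, against 76.4% of all genes tested. Called genes have larger folds than other genes, so these shares are not like for like. In that pair 1124 of the 15112 genes were called, and in the Sca-1+ pair 1386 (9.17%). With the same sign 741 were called in both, 53.5% of the Sca-1+ list and 65.9% of the Sca-1- list. Both pairs were tested with the same estimate of spread.

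No gene was called when the difference between the Ly6C effects of Sca-1+ and Sca-1- cells was tested by edgeR, with a smallest adjusted p of 0.18. At an unadjusted p under 0.05 there were 768 genes (5.08%), and DESeq2 called 39. The S100, annexin and galectin list held 11 of 20 such genes and the monocyte and macrophage markers 8 of 13, against 0 of 30 mitotic genes. Among the genes with the smallest p, Itgb1 had an Ly6C fold change of -1.69 in Sca-1+ and 0.08 in Sca-1- cells, a difference of -1.77 ± 0.16. Cxcr3, a chemokine receptor of memory cells, was not called in Sca-1+ cells, at 138 and 143 against 121 CPM (0.21 ± 0.10), with 1.56 in Sca-1- cells. Tmem154 was at 16.7 and 18.5 against 68.6 CPM (-1.96 ± 0.13), and Atp2b4, a calcium pump, at 80.9 and 72.9 against 141 CPM (-0.88 ± 0.11), with -0.45 and 0.38 in Sca-1- cells. Both genes were highest in the Ly6C- Sca-1+ library of the 6 VM libraries. Marcks, a protein kinase C substrate, was at 7.31 and 7.92 against 5.51 CPM (0.47 ± 0.27), with -3.52 in Sca-1- cells.

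**Figure D5:**
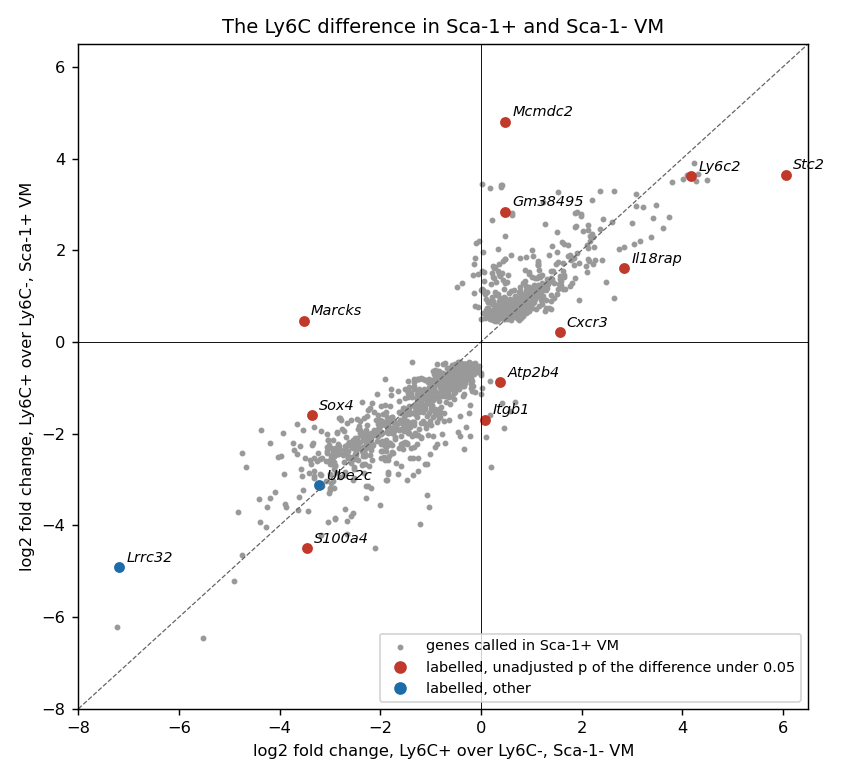
Grey points are the 1386 genes called in Sca-1+ VM cells, with their log2 fold change (Ly6C+ over Ly6C-) in Sca-1- cells across and in Sca-1+ cells upward; labelled genes, called or not, are coloured by the unadjusted p of the difference and the dashed line marks equal values. Of the called genes 98.2% have the same sign on both axes, while Itgb1, Atp2b4 and Marcks lie on opposite sides of 0.

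Some genes stood apart in the Ly6C- Sca-1+ library alone. Mcmdc2, a meiotic MCM-domain gene, was at 4.58 and 4.34 CPM in Ly6C+ libraries and 0.157 CPM in the Ly6C- library (4.80 ± 0.39), against 3.36 to 5.79 CPM in the other 5 libraries. Gm38495 was at 132 and 111 against 17.0 CPM (2.84 ± 0.17), with 141 to 204 CPM elsewhere. Rps27rt, a retrotransposed copy of Rps27 whose reads can come from other copies, was at 48.0 and 39.4 against 12.4 CPM (1.82 ± 0.18), with 30.4 CPM or more elsewhere. Lars2, for a mitochondrial tRNA synthetase, was at 844 and 349 against 71.8 CPM (3.05 ± 0.58), and 354 to 1171 CPM in the others.

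Set beside naive and true memory cells, the genes that were lower in Ly6C+ cells were mostly nearer in true memory cells to the Ly6C- library. Taking the geometric midpoint between the Ly6C+ mean and the Ly6C- level, true memory cells lay on the Ly6C- side for 733 of the 909 lower genes (80.6%), and naive cells for 148 (16.3%). Over all genes these shares were 54.0% and 37.0%. For the 477 higher genes they were 52.4% (250 genes) and 44.9% (214 genes). Called genes have their ends farther apart than other genes, so the shares of called and of all genes are not like for like, and naive and true memory are 1 library each. Among dendritic cell markers, the true memory library had 2062 CPM of Cd74, 852 of H2-Eb1, 183 of Itgax and 84.3 of Flt3. The Ly6C- Sca-1+ library had 107, 36.7, 15.8 and 2.77 CPM of these. The part of dendritic cells in the true memory levels was not tested.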

How the data were processed

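RNA from 8 sorted CD8 T cell libraries was sequenced as 101 bp reads, with FastQC 0.11.7 for quality and Trimmomatic 0.38 for trimming, per the labels' protocols. R 3.6.0, edgeR and the mm10 build are named, per the submitters' processing notes, and no source used here names the aligner or counter. The authors deposited raw read counts per gene, not normalized, for 15609 genes that all had at least 1 count in every library, so genes silent in any group are missing. Another 24 per-sample columns in other units were not used. Totals were 60898155 and 58854507 counts for Ly6C+ Sca-1+ libraries A and B and 50911983 for the Ly6C- library, where 1 count is worth 0.0170, 0.0167 and 0.0197 CPM, and 49993407 to 63815914 over all 8. Counting without strand cannot separate overlapping genes, and no source used here states the strand setting.

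Counts were scaled by TMM, filtered with filterByExpr (15112 genes) and fitted in 6 groups with edgeR 4.0.16's quasi-likelihood test in R 4.3.3, with 2 residual degrees of freedom. The threshold was an adjusted p of 0.05 (Benjamini-Hochberg, over all genes tested), and the standard error was derived from the F statistic. The replicated Ly6C+ Sca-1+ libraries differed by at least 2-fold in 64 of 10038 genes with a mean of at least 5 CPM, against 704 and 606 between each of them and the Ly6C- library. Scripts were tested on simulated data. DESeq2 1.42.0, limma 3.58.1 (voom), RLE size factors, other filters, a 2-fold minimum, fewer libraries and leaving out each replicate were the alternatives.

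The comparison and the gene lists were chosen with earlier results of these data known. Genes named were the gate genes, up to 5 called members of each list in each direction with the smallest p (the 2 with the largest fold where fewer than 2 were called), the 2 most abundant markers of each cell type, the 15 largest and smallest folds among called genes with at least 5 CPM, and the 10 smallest p in each direction. For the difference between Sca-1+ and Sca-1- they were the 5 smallest p in each direction. Promoter windows and gene positions are from RefSeq on GRCm38.p6, matched by gene for 15074 IDs. A few genes that the rule names are not reported here.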

Additional observations from a re-analysis of the deposited data

How the results depend on the processing

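The count of 1386 called genes stayed between 1207 and 2024 with RLE size factors, with no filter or 1 CPM in every library, with DESeq2 or limma-voom, and in the 6 VM libraries. It was 2593 in the 3 libraries alone, 157 when a 2-fold change was tested as the minimum, and 483 to 2954 when each replicate was left out. No paired analysis was possible because the groups compared share fewer than 2 replicate numbers; a replicate block by column suffix, with lone libraries put with the unsuffixed ones, gave 5334 genes, and its meaning is unknown. Under it 15 of 20 AP-1 and immediate early genes were called higher and 1 lower, against 0 and 1 without it, 11 of 26 T cell receptor genes against 2, and 17 of 36 interferon-stimulated genes against 2. For the difference between the Ly6C effects of Sca-1+ and Sca-1- cells, 0 genes became 39 with DESeq2 and 364 with the replicate block, and 0 to 169 when each replicate was left out (169 without Ly6C+ Sca-1- library A, 109 without B). The cause of these shifts was not tested. No called named gene changed sign under any alternative run. Of those not called, Cd44, Itga4, Cd3e and Hspa1b did without Ly6C+ Sca-1+ library A, from 0.07, -0.12, 0.02 and 0.55 on the log2 scale to -0.06, 0.01, -0.03 and -0.59. Of the 184 named genes, 53 lost their call without Ly6C+ Sca-1+ library A and 41 without B, and 91 did when a 2-fold change was the minimum. The Ly6C- group has 1 library, so its own spread was not measured.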

Other observations

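Immunoglobulin and T cell receptor constant region genes were looked at after their values were seen. Of 13 tested, 5 were called lower in Ly6C+ cells (38.5%, against 6.02% of all genes) and 0 higher, with a median log2 fold change of -1.27. Igkc, the kappa light chain constant gene, stood at 13.5 and 11.3 CPM in the Ly6C+ libraries A and B against 64.7 CPM in the Ly6C- library, a log2 fold change of -2.38 (edgeR adjusted p = 0.035). Of the B cell and plasma cell markers, 2 of 7 and 2 of 3 were called lower in Ly6C+ cells, and the part of such cells was not tested.

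Of 1224 pseudogenes 42 were higher (3.43%) and 20 lower (1.63%), against 3.16% and 6.02% of all genes. Their median log2 fold change was 0.36 in Sca-1+ and -0.07 in Sca-1- cells. Reads of pseudogenes can come from their parent genes, so these counts are uncertain. The uncharacterised gene 5830411N06Rik, also chosen after its values were seen, had 148 CPM in each Ly6C+ library against 42.1 CPM in the Ly6C- library (log2 fold change 1.81).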
